A study of Rattus norvegicus with 18 samples.

Results

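Fibroblasts and mural cells, the pericytes and smooth muscle cells that lie around blood vessels, were followed through 9 genes in primary neuroglial cultures of newborn Wistar rat cortex. The genes were taken by name from the count files, whatever their level, and all 9 were found among 31463 named entries. The 9 names were chosen with earlier results of these data known. Counts of these genes set beside shares of all genes are therefore descriptive. They are the matrix genes Dcn, Lum and Postn, the mural cell genes Pdgfrb and Rgs5, and the contractile genes Acta2, Tagln, Myl9 and Cnn1. Of the 9, 5 passed the filter on low counts that left 14398 genes for testing (Postn, Pdgfrb, Tagln, Myl9 and Cnn1), and the other 4 (Dcn, Lum, Rgs5 and Acta2) are given as counts only.

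The cultures formed 6 groups of 3 libraries. Control cultures received no glutamate. The Glutamate group received 100 µM glutamate on day 10 in vitro, an excitotoxic dose, and its RNA was taken 4 h later. The Memantine group received the same glutamate together with 100 µM Memantine, an NMDA receptor antagonist. The Glutamate_vesicles, Glutamate_secret and Glutamate_BPC groups received the glutamate after 1 of 3 preparations from glial progenitor cells, themselves derived from human induced pluripotent stem cells, had been added the day before. All 5 groups other than Control therefore carried glutamate, and none received a preparation without it. The labels do not say which material "secret" and "BPC" stand for, so both names are kept as given. Every group holds replicates numbered 1, 2 and 3, and the labels do not say what a number stands for. The study's methods say in general that experiments were repeated on unrelated cultures, and a supplementary legend names a day effect that was taken out of the data for plotting, without tying a replicate number to a culture or a day. The p-values therefore measure the spread between these libraries, whatever it holds. The vascular lining was removed from the cortex before dissociation, and cytosine arabinoside was given to limit dividing cells. Both steps applied to every group, and both limit the vessel-associated and dividing cells that the 9 genes are known from.

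As background, fibroblasts build the collagen and proteoglycan matrix of connective tissue, and in the brain they lie in the meninges and around larger vessels. Pericytes share a basement membrane with capillary endothelium and depend on platelet-derived growth factor signalling, whereas smooth muscle cells wrap arteries and contract through actin, myosin and their regulators. The genes of the contractile apparatus are regulated in large part by serum response factor (SRF) with its actin-sensing cofactors, and they are also used by myofibroblasts and other cells that build stress fibres, so a contractile gene alone does not name a cell type.

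The libraries held 8409574 to 17206354 expected counts, and ribosomal RNA took from 3.04% to 43.0% of them. The highest share was in Control 1, which stands apart. Levels are given as CPM, the counts in a library divided by its scaled size and multiplied by 1000000, and they compare a gene between libraries, not genes with each other.

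Markers of fibroblasts and mural cells were unevenly counted. Rgs5, a regulator of G protein signalling that marks pericytes, had 3 counts in all 18 libraries, of which 2 fell in Memantine 2 and 1 in Glutamate_secret 2. No count of Rgs5 in a group allows a pooled level of up to 0.0707 CPM in Control, 0.0888 in Glutamate, 0.0540 in Glutamate_vesicles and 0.0798 in Glutamate_BPC, for counting error only. Of 11 other mural genes in the files, 5 passed the filter. Among them Cspg4 had 8136 counts over the 18 libraries, Mcam 7449, Notch3 5329, Ndufa4l2 499 and Vtn 121. Those that did not pass held from 2 counts (Tbx18) and 5 (Foxf2) through 28 (Abcc9) to 109 (Des). Some mural genes were thus in every library while others, Rgs5 and Tbx18 among them, were nearly absent. Of 14 other fibroblast genes 10 passed, from 123 counts of Ogn to 37448 of Pdgfra, which oligodendrocyte progenitors also carry, with Bgn at 8782, Col5a1 at 1694 and Col1a1 at 728. The other 4 were Fap (9 counts), Mfap5 (16), Foxc1 (34) and Twist1 (46). Of 6 pia and arachnoid markers, Igfbp2 held 237561 counts, Crabp2 547 and Ptgds 130, while Slc6a13 held 6, Aldh1a2 4 and Foxd1 1. The summed level of these 6 ran from 431 to 1295 CPM in Control, 361 to 2476 in Glutamate, 167 to 1370 in Memantine, 652 to 2020 in Glutamate_vesicles, 549 to 3506 in Glutamate_secret and 966 to 1456 in Glutamate_BPC, overlapping between groups. Igfbp2 held nearly all counts of the 6, so this sum follows that gene and is no measure of pial or arachnoid cells. The 7 endothelial marker genes found in the files summed to between 0.315 and 5.30 CPM in the 18 libraries. The markers of these cells did not stand at 1 common level, and none of the 9 genes is read here as a count of vascular cells or fibroblasts. In bulk RNA, fewer cells of a type and less RNA per cell cannot be told apart.

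Dcn and Lum, the small leucine-rich proteoglycans that bind collagen fibrils, were almost absent. Dcn had 20 counts over 18 libraries, found in 6 of them: 0 in Control, 2 in Glutamate, 3 in Memantine, 1 in Glutamate_vesicles, 8 in Glutamate_BPC and 6 in Glutamate_secret. All 6 counts of the Glutamate_secret group came from its library 3 and all 8 of the Glutamate_BPC group from its library 1, so each group value rests on a single library. Against a Control floor of 3 counts over the group (0.0707 CPM), Dcn stood 2.46-fold higher in Glutamate_secret and 3.01-fold higher in Glutamate_BPC. These ratios take the 6 and 8 counts as exact, so they are no lower bounds, and they had no replicate check. Against the 2 counts in Glutamate, the ratio was 2.94 (0.525 to 29.8) in Glutamate_secret and 3.59 (0.717 to 34.7) in Glutamate_BPC. Both counting intervals, at 95%, include 1. Lum had 12 counts in 8 libraries, with 1 in Control, 2 in Glutamate, 1 in Memantine, 1 in Glutamate_vesicles, 4 in Glutamate_secret, all in library 3, and 3 in Glutamate_BPC. At these counts no difference in Lum between groups was detectable. In the annotation Dcn overlaps another locus, LOC120093566, and its few counts could be shared with it.

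Postn, which encodes periostin, a matrix protein secreted by activated fibroblasts, was the matrix gene with most counts, 228 over 11 of 18 libraries. The libraries numbered 1, 2 and 3 held 0, 6 and 2 counts in Control, 0, 3 and 0 in Glutamate, and 0, 2 and 0 in Memantine. They held 13, 17 and 99 in Glutamate_vesicles, 0, 52 and 3 in Glutamate_secret, and 7, 24 and 0 in Glutamate_BPC. In CPM the Glutamate_vesicles libraries stood at 1.30, 0.682 and 4.81, above every Control and Glutamate library, which reached at most 0.294, whereas each of the other preparations had a library at 0. In the comparison of Glutamate_vesicles with Control, 9.72% of all tested genes had groups that did not overlap with the first higher, and in that with Glutamate 2.89% did. Every library with at least 10 counts of Postn, the minimum count of the filter, belonged to a preparation. Postn was thus kept for testing by the groups in which it was high. Shares of all tested genes, here and further on, are therefore no matched background for its p-values or its lack of overlap.

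Postn was not called in any comparison of 2 groups with edgeR's quasi-likelihood test. Its log2 fold change in Glutamate_vesicles was 3.69 ± 1.48 (SE) against Control, with an unadjusted p of 0.0244 and an adjusted p of 0.344 in edgeR's quasi-likelihood test. Against Glutamate, where the group held 3 counts in all, the counts gave a ratio of 26.2 with a counting interval of 8.75 to 128 at 95%, and the test gave an adjusted p of 1.00. The same ratio was 17.96 (5.83 to 89.8) in Glutamate_secret and 9.28 (2.89 to 47.4) in Glutamate_BPC. Of the 129 counts in the Glutamate_vesicles group 99 came from library 3. Without that library the log2 fold change against Control was 2.49, with an unadjusted p of 0.131. These intervals cover counting error only and leave out the spread between libraries.

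**Figure D1:**
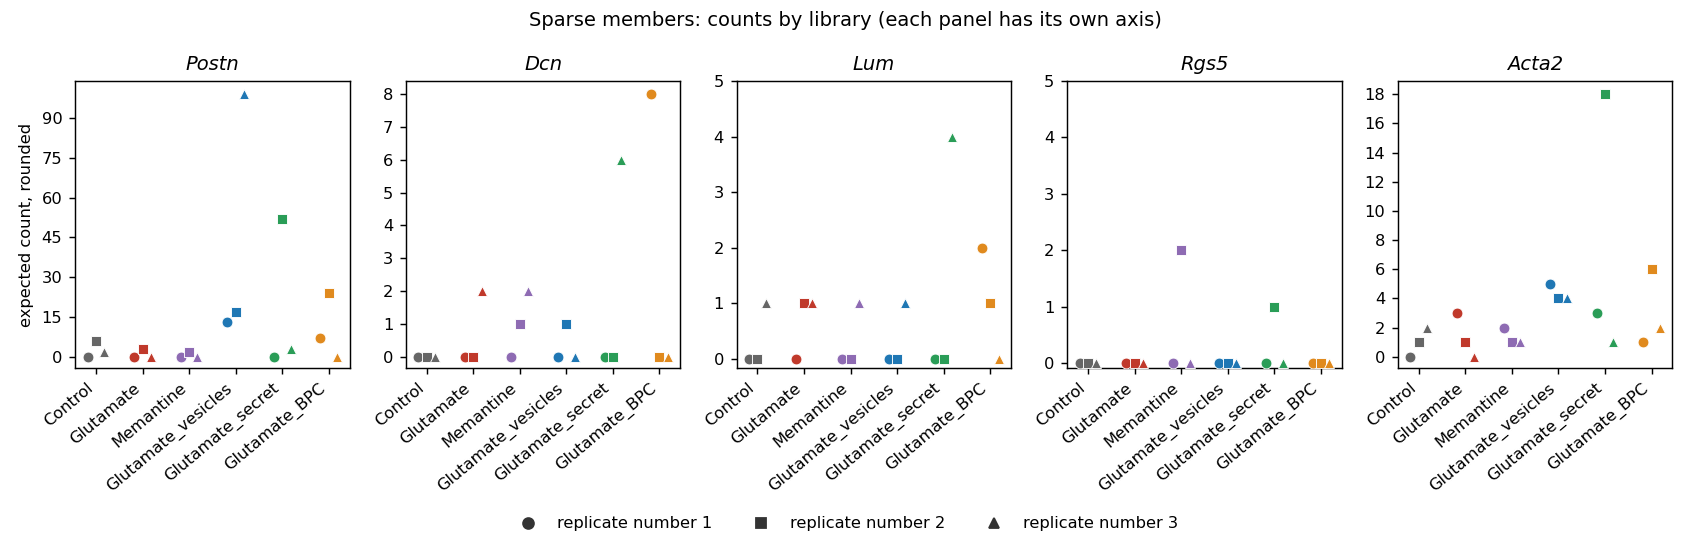
Rounded expected counts of Postn, Dcn, Lum, Rgs5 and Acta2 in each of the 18 libraries, with a panel and a linear axis of its own for each gene and a point for each library, placed by group. Most libraries sit at or near 0, and single libraries carry the high values, such as 99 counts of Postn in Glutamate_vesicles 3 and 18 of Acta2 in Glutamate_secret 2.

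Pdgfrb, the receptor through which platelet-derived growth factor B recruits pericytes and which fibroblasts also carry, was counted in all 18 libraries (1553 counts). Libraries 1, 2 and 3 stood at 3.71, 8.15 and 6.52 CPM in Control, at 2.71, 8.0 and 4.57 in Glutamate and at 5.26, 7.39 and 5.53 in Memantine. The preparations gave 4.88, 7.78 and 5.44 in Glutamate_vesicles, 3.78, 9.60 and 1.63 in Glutamate_secret, and 3.53, 5.19 and 7.16 in Glutamate_BPC. Every group's range overlapped every neighbour's in the order of the means, and the group means lay between 5.0 ± 4.12 (SD) and 6.13 ± 2.24 CPM (n = 3 each). The test over the 6 groups gave an adjusted p of 1.00, and the log2 fold changes against Control ran from −0.28 in Glutamate_secret to −0.03 ± 0.57 (SE) in Memantine. With an SE near 0.57, a change in Pdgfrb of that size on the log2 scale could not have been told from the spread between libraries.

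The contractile genes Tagln, Myl9 and Cnn1 had their lowest group means in Control. Tagln and Myl9 were counted in all 18 libraries and Cnn1 in 16. In each preparation, every library held more Tagln and more Cnn1 than every Control library. For Myl9 the groups overlapped.

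Tagln encodes transgelin, an actin-bundling protein abundant in smooth muscle (73856 counts in all). In Control, libraries 1, 2 and 3 stood at 139, 48.1 and 159 CPM. Glutamate gave 393, 50.5 and 395, and Memantine 97.1, 38.4 and 391. Both groups overlapped Control, since their library 2 lay near the lowest Control library, while other libraries of theirs exceeded the highest. Glutamate_vesicles stood at 662, 261 and 390 CPM, Glutamate_secret at 808, 333 and 769, and Glutamate_BPC at 539, 287 and 598. All 9 of these libraries were above the highest Control library. The means were 115 ± 59.2 (SD) in Control, 175 ± 189 in Memantine, 279 ± 198 in Glutamate, 438 ± 205 in Glutamate_vesicles, 474 ± 165 in Glutamate_BPC and 636 ± 263 in Glutamate_secret (n = 3 each), and no neighbouring groups in that order were free of overlap.

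Cnn1 encodes calponin, an actin-binding protein that restrains myosin in smooth muscle, and had 442 counts. Control libraries held 0, 0 and 7 counts, which is 0, 0 and 0.377 CPM. Glutamate libraries stood at 2.45, 0.190 and 2.43 CPM and Memantine libraries at 0.859, 0.222 and 2.08, overlapping Control through library 2 in both groups. The values were 5.58, 2.05 and 2.87 CPM in Glutamate_vesicles, 1.89, 1.55 and 3.80 in Glutamate_secret, and 3.53, 2.31 and 3.69 in Glutamate_BPC. Every one of these 9 libraries was above the Control library with counts. The means rank as 0.126 ± 0.218 (SD) in Control, 1.06 ± 0.946 in Memantine, 1.69 ± 1.30 in Glutamate, 2.41 ± 1.21 in Glutamate_secret, 3.18 ± 0.757 in Glutamate_BPC and 3.50 ± 1.85 CPM in Glutamate_vesicles (n = 3 each), with overlap between all neighbours.

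Myl9, the regulatory light chain through which phosphorylation switches smooth muscle myosin on, had 8658 counts. Its libraries 1, 2 and 3 stood at 32.0, 12.3 and 22.8 CPM in Control, 54.0, 10.7 and 47.2 in Glutamate and 38.2, 5.0 and 52.7 in Memantine. They stood at 123, 18.9 and 34.7 in Glutamate_vesicles, 86.8, 29.0 and 39.8 in Glutamate_secret and 66.9, 27.7 and 60.2 in Glutamate_BPC. Library 2 was the lowest of its group throughout, and the groups overlapped in every comparison. Group means ran from 22.3 ± 9.86 CPM (SD) in Control to 59.0 ± 56.4 in Glutamate_vesicles, a spread within Glutamate_vesicles close to its mean.

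**Figure D2:**
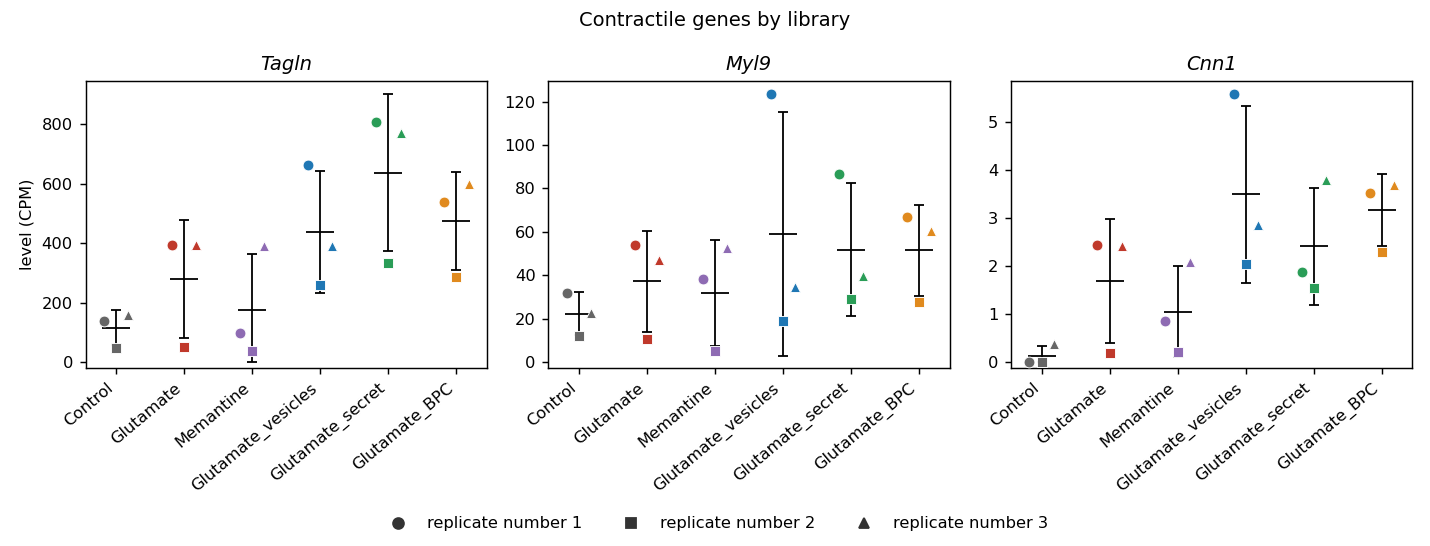
CPM of Tagln, Myl9 and Cnn1 in each library of the 6 groups, on linear axes, with the point's shape giving the replicate number, a horizontal bar for the group mean and whiskers of ± 1 SD cut at 0. All 9 libraries of the preparations lie above the 3 Control libraries for Tagln and Cnn1, while Myl9 overlaps.

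Acta2, the smooth muscle alpha actin, had 55 counts in 16 libraries. The groups held 3 counts in Control, 4 in Glutamate, 4 in Memantine, 13 in Glutamate_vesicles, 9 in Glutamate_BPC and 22 in Glutamate_secret. Of the 22 counts in Glutamate_secret, 18 came from library 2. The ratio to Control was 3.31 (0.910 to 18.1) in Glutamate_vesicles, 9.03 (2.71 to 47.1) in Glutamate_secret and 3.39 (0.845 to 19.4) in Glutamate_BPC, with counting intervals at 95% that leave the spread between libraries out. The actin genes have near-identical coding sequences, and estimated counts divide shared reads between them by a model. The actins were looked up after the values were seen: Actb had 878651 counts over the 18 libraries, Actg1 593835, Acta1 467, Actc1 2 and Actg2 1. Acta2 at 55 counts is uncertain for that reason.

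The promoters of Acta2 and Cnn1 are shown because they are the contractile members with an entry in the promoter table, and SRF is a known regulator of both. SRF binds the CArG box, which was searched on both strands in the 250 bases before the gene start in RefSeq's GRCr8 annotation, where 5 of the 9 genes have an entry (Lum, Postn, Rgs5, Acta2 and Cnn1). Dcn, Pdgfrb, Tagln and Myl9 are named only. In the lines that follow, read on the gene's strand, capitals mark boxes with 1 deviation from the CArG pattern. The Acta2 promoter is chr1:241172504-241172753 on the minus strand and that of Cnn1 is chr8:28908187-28908436 on the plus strand.
Acta2: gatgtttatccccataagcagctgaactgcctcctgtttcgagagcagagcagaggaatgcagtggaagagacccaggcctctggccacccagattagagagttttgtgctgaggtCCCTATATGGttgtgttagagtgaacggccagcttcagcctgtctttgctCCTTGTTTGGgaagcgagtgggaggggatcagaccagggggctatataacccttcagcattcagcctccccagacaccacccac
Cnn1: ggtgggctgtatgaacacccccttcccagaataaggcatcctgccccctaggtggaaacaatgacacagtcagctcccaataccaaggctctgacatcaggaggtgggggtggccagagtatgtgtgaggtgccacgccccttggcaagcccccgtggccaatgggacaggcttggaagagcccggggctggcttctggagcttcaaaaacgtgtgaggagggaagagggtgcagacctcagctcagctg
The Acta2 promoter held boxes starting 134 and 84 bases before the gene start, and none of the other 4 promoters held one. A box with no deviation was found in 501 of 33469 promoters (1.5%) and in none of these 5, and a box with at most 1 deviation in 6275 (18.7%). A match describes the letters of this window only, and the letters of a promoter say nothing of the counts above.

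Across the 6 groups, 0 of the 5 tested genes passed an adjusted p of 0.05 in edgeR's quasi-likelihood test, where 0.00695% of all 14398 genes passed (1 gene). At an unadjusted p under 0.05, Postn (unadjusted p = 0.0150, adjusted p = 0.352) and Cnn1 (unadjusted p = 0.0328, adjusted p = 0.531) passed among the 5, beside 7.75% of all genes. Tagln had an adjusted p of 0.809, and Myl9 one of 1.00. Of the 5, DESeq2 called Cnn1 alone over the 6 groups, in a fit that called 717 of all genes. The likelihood-ratio test of edgeR called Postn alone of the 5 (adjusted p = 0.0390), in a fit that called 587. With replicate number as a block, described further on, the quasi-likelihood test called Tagln (adjusted p = 0.0272) and Cnn1 (adjusted p = 0.0392), while Postn stood at 0.0571. That fit called 497 of all genes.

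The effect of glutamate itself was compared between Glutamate and Control. The log2 fold change was 3.34 ± 1.18 (SE) for Cnn1 (unadjusted p = 0.0120, adjusted p = 0.398), 1.28 ± 0.82 for Tagln (adjusted p = 0.855) and 0.74 ± 0.82 for Myl9. None of the 5 genes was called, as for 0% of all genes, and DESeq2 and the likelihood-ratio test called none either. Cnn1 was the only one of the 5 at an unadjusted p under 0.05, beside 2.13% of all genes that were higher at that level. Without Control 1, Cnn1 stood at 3.11 (unadjusted p = 0.0307), Tagln at 1.43 and Myl9 at 1.09 in edgeR's fit.

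Memantine with glutamate was set against glutamate alone. Tagln differed by −0.67 ± 0.81 (SE) on the log2 scale, Cnn1 by −0.66 ± 1.01, Myl9 by −0.22 ± 0.82 and Pdgfrb by 0.24. None was called (0% of all genes), and none was at an unadjusted p under 0.05 in either direction. Of all genes 4.88% were higher at that level, and the share that was lower was not taken. Same-numbered libraries deviated together in Memantine and Glutamate. With the replicate block the quasi-likelihood test gave −0.71 ± 0.49 for Tagln (unadjusted p = 0.169), −0.63 ± 0.72 for Cnn1 (0.393) and −0.29 ± 0.45 for Myl9 (0.525), and called none. Against Control, Memantine gave a log2 fold change of 2.68 ± 1.16 for Cnn1 (unadjusted p = 0.0351, adjusted p = 1) and 0.60 ± 0.81 for Tagln. Here too 0% of genes were called, and Cnn1 was the only one of the 5 higher at an unadjusted p under 0.05, beside 0.576% of all genes. Without Control 1 it stood at 2.45 with an unadjusted p of 0.0738 in edgeR's fit, and Tagln at 0.76.

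The preparations were then compared with glutamate alone, the comparison that asks what each added to the glutamate response. For the contractile genes the differences were at most 1.5 times their errors without a block. Tagln differed by 0.65 ± 0.81 (SE, log2) in Glutamate_vesicles, 1.19 ± 0.82 in Glutamate_secret and 0.76 ± 0.81 in Glutamate_BPC. Cnn1 differed by 1.06 ± 0.99, 0.51 ± 1.00 and 0.92 ± 0.99, and Myl9 by 0.66 ± 0.82, 0.48 and 0.47 in the same order. Postn differed by 4.70 ± 1.60 in Glutamate_vesicles, 3.55 ± 1.57 in Glutamate_secret and 3.00 ± 1.57 in Glutamate_BPC, fitted values that rest on 3 counts in the Glutamate group. It was the only gene of the 5 higher at an unadjusted p under 0.05, in Glutamate_vesicles (0.00969) and in Glutamate_secret (0.0384), while Glutamate_BPC gave 0.0738. Same-numbered libraries also deviated together in Glutamate_secret and Glutamate_BPC with Glutamate, and with the replicate block Tagln differed by 1.48 ± 0.50 in Glutamate_secret (unadjusted p = 0.00903, adjusted p = 0.938) and 1.10 ± 0.50 in Glutamate_BPC (unadjusted p = 0.0403, adjusted p = 0.966). In the blocked fit Postn gave unadjusted p of 0.0289 in Glutamate_secret and 0.0394 in Glutamate_BPC, Cnn1 of 0.245 and 0.0786, and Myl9 of 0.165 and 0.152. Without the block 0.479%, 0.319% and 0.403% of all genes were higher at an unadjusted p under 0.05 in the 3 comparisons, and 0% were called in each. No such share was taken for the blocked fit, so its p-values have no share of all genes beside them. The adjusted p of Postn was 1.00 in Glutamate_vesicles and 1 in Glutamate_secret, and DESeq2 and the likelihood-ratio test called none of the 5 in any of the 3 comparisons.

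Set against Control, the preparations with glutamate showed the widest differences in the contractile genes. Tagln stood 3.79-fold higher in Glutamate_vesicles (log2 1.92 ± 0.83 SE, adjusted p = 0.381), 5.51-fold in Glutamate_secret (2.46 ± 0.85, adjusted p = 0.253) and 4.11-fold in Glutamate_BPC (2.04 ± 0.84, adjusted p = 0.369). Cnn1 gave log2 fold changes of 4.40 ± 1.20 (adjusted p = 0.194), 3.86 ± 1.19 (adjusted p = 0.211) and 4.27 ± 1.19 (adjusted p = 0.295) in the same order. Both genes were higher than Control at all 3 replicate numbers in every preparation. Myl9 gave 1.41 ± 0.83 in Glutamate_vesicles (unadjusted p = 0.112, adjusted p = 0.582), 1.22 ± 0.83 in Glutamate_secret and 1.22 ± 0.83 in Glutamate_BPC. Since 2 of 3 Control libraries held no count of Cnn1, its fitted fold changes depend on the few counts of Control 3 and on the prior count, and they are no bound.

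None of the 5 genes passed the adjusted threshold in these 3 comparisons with edgeR's quasi-likelihood test, which called 0.0139% of all genes in Glutamate_vesicles against Control, 0% in Glutamate_secret and 0% in Glutamate_BPC. At an unadjusted p under 0.05, 3 of the 5 were higher in Glutamate_vesicles (Tagln 0.0350, Cnn1 0.00212 and Postn 0.0244), beside 3.99% of all genes. In Glutamate_secret 2 were (Tagln 0.0107 and Cnn1 0.00525), beside 4.14%, and in Glutamate_BPC 2 were (Tagln 0.0271 and Cnn1 0.00264), beside 3.92%. For Cnn1 and Postn these shares are no matched background, since the filter kept both through libraries given glutamate. Cnn1 was called by DESeq2 in all 3 (adjusted p = 0.00632, 0.0194 and 0.0174) and by the likelihood-ratio test in all 3 (adjusted p = 0.0190, 0.0416 and 0.0425), and DESeq2 also called Tagln in Glutamate_secret (adjusted p = 0.0471). In the same order DESeq2 called 496, 449 and 256 of all genes, and the likelihood-ratio test 160, 223 and 61, so such calls are not particular to Cnn1 and Tagln. Groups that did not overlap, with the preparation higher, were found for 9.72% of all genes in Glutamate_vesicles, 6.88% in Glutamate_secret and 12.2% in Glutamate_BPC, and in all 3 at once for 4.17% (600 genes), among them Tagln and Cnn1. All these comparisons share the Control libraries.

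Without Control 1, the library with the highest ribosomal share, Tagln stood at log2 2.08 in Glutamate_vesicles, 2.62 in Glutamate_secret and 2.19 in Glutamate_BPC, with unadjusted p of 0.0564, 0.0232 and 0.0466. Cnn1 then stood at 4.17, 3.62 and 4.03, with unadjusted p of 0.00760, 0.0157 and 0.00905 in edgeR's quasi-likelihood test. Postn in Glutamate_vesicles stood at 3.43 with an unadjusted p of 0.0586. Cnn1 and Tagln kept their direction without Control 1, and neither was called.

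**Figure D3:**
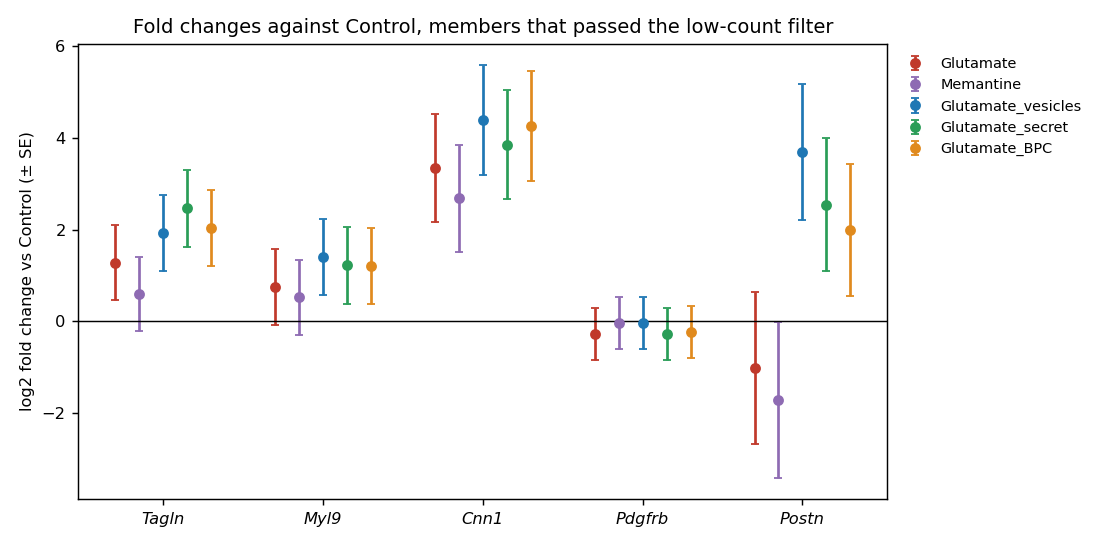
Log2 fold change against Control of Tagln, Myl9, Cnn1, Pdgfrb and Postn in the 5 groups that received glutamate, with bars of ± 1 SE from edgeR's quasi-likelihood fit and a line at 0. Cnn1 lies highest in each group, from 2.68 in Memantine to 4.40 in Glutamate_vesicles, and Pdgfrb stays within 1 SE of 0.

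The replicate number moved with the contractile genes. Number 2 was the lowest of its group in all 6 groups for Tagln and Myl9, and in 5 of 6 for Cnn1, while Pdgfrb was highest at number 2 in 5 of 6. Libraries numbered 1 exceeded those numbered 2 by 1.56 on the log2 scale for Tagln, 2.02 for Myl9 and 1.10 for Cnn1, and Pdgfrb differed by −0.93. Number 3 exceeded number 2 by 1.81 for Tagln, 1.47 for Myl9 and 1.61 for Cnn1, and Pdgfrb differed by −0.67. Tested with the group in the model, replicate number was called for 4 of the 5 genes, Myl9 (adjusted p = 0.00107), Tagln (0.00197), Cnn1 (0.0207) and Pdgfrb (0.0349), but not Postn (0.165). It was called for 60.4% of all genes (8694), and 9.14% of genes were lowest at number 2 in all 6 groups, so the pattern is shared with much of the transcriptome. The ribosomal share also moved with the number, at 13.4% to 43.0% in libraries numbered 1, 3.04% to 8.15% in those numbered 2 and 6.58% to 26.6% in those numbered 3, and with that share as a covariate replicate number was called for 0 of the 5. Over 18 libraries the log2 ribosomal share correlated at 0.39 with Tagln, 0.56 with Myl9, 0.13 with Cnn1, −0.74 with Pdgfrb and −0.48 with Postn. With the replicate number means removed, these were −0.01, −0.03, −0.19, −0.51 and −0.36. The ribosomal share and the replicate number go together in part, and the separate part of each in these levels was not tested.

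**Figure D4:**
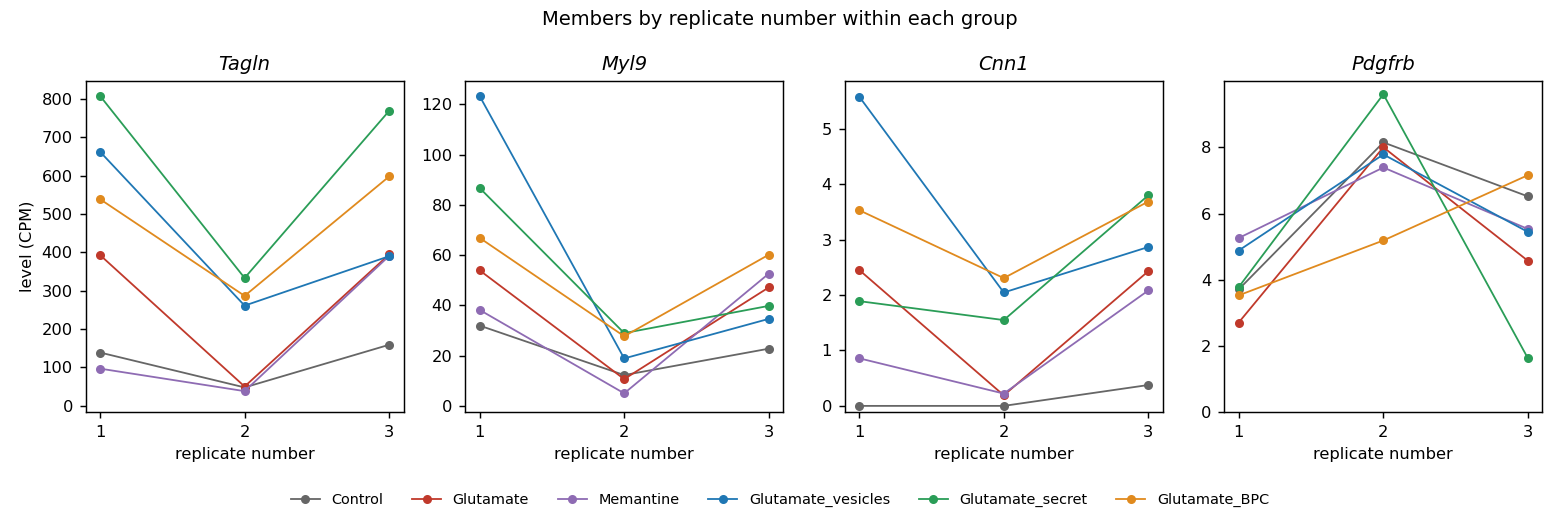
CPM of Tagln, Myl9, Cnn1 and Pdgfrb at replicate numbers 1, 2 and 3, with a line joining the 3 libraries of each group and the numbers in no order. Tagln and Myl9 dip at number 2 in all 6 groups and Cnn1 in 5 of 6, while Pdgfrb is highest there in 5 of 6.

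Same-numbered libraries deviated together in Glutamate_vesicles and Control (correlations of their deviations 0.600, 0.505 and 0.208 at numbers 1, 2 and 3), so that comparison was also fitted with replicate number as a block. Tagln then passed with a log2 fold change of 2.09 (adjusted p = 0.0348) and Cnn1 with 4.66 (adjusted p = 0.0245), 2 of the 5 genes, in a fit that called 3.74% of all genes (538), 0.965% as higher. Most of the libraries left out in turn ended these calls. In the blocked fit Tagln stayed called without Control 3 (adjusted p = 0.0492), but stood at 0.0820 without Control 1, 0.0977 without Control 2, and 0.157, 0.141 and 0.0867 without Glutamate_vesicles 1, 2 or 3. Cnn1 stayed called without Control 1 (0.0314) or Control 3 (0.0173), but stood at 0.0635 without Control 2 and at 0.120, 0.0994 and 0.0814 without Glutamate_vesicles 1, 2 or 3. Refitting the block with libraries left out was chosen after the data were seen.

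Genes that work with these 9 were followed through lists. Among 17 tested of 18 other contractile and SRF target genes, none was called without the block in any comparison. Against Control, 10 of 17 were higher at an unadjusted p under 0.05 in Glutamate_vesicles, 6 in Glutamate_secret, 6 in Glutamate_BPC, 3 in Glutamate and 1 in Memantine, where 3.99%, 4.14%, 3.92%, 2.13% and 0.576% of all genes were. Their median log2 fold change was 1.22, 0.71, 0.82, 0.82 and 0.60 in that order, beside 0.03, 0.06, −0.06, 0.08 and 0.10 over all genes tested. The 10 tested of 14 other fibroblast genes had medians of 1.30, 0.62, 0.91, 0.57 and 0.56, and the 5 tested of 12 other mural genes 0.95, 0.92, 1.15, 0.52 and 0.65. A list of 10 genes held ligands and receptors of transforming growth factor beta (TGF-beta) and ligands, but no receptors, of platelet-derived growth factor. Its medians were 0.49, 0.20, −0.09, 0.61 and 0.05. Without Control 1 the contractile and SRF list had 5, 5, 4, 2 and 1 genes higher at that level, where 2.35%, 5.33%, 2.27%, 2.36% and 0.688% of all genes were. Its medians were then 1.00, 0.58, 0.71, 0.52 and 0.34, beside 0.09, 0.05, −0.02, 0.12 and 0.12 over all genes tested. The fibroblast list had medians of 0.91, 0.31, 0.45, 0.20 and 0.24, and the mural list, with 6 genes tested, 0.83, 0.82, 0.81, 0.20 and 0.30. No gene of these lists was called without the block. The lists were drawn up with earlier results of these data known, so their counts and medians describe the libraries and test nothing. The shares of all genes beside those counts are no matched background.

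With the replicate block in Glutamate_vesicles against Control, 10 of the 42 tested genes of these lists passed, 8 higher and 2 lower, beside 3.74% of all genes. That count too comes from lists drawn up with earlier results known, and it tests nothing. Among the SRF targets, Ccn2, a matricellular protein of fibrotic tissue, stood at 5.42, 6.23 and 4.42 CPM in Control and 31.9, 65.5 and 41.5 in Glutamate_vesicles (log2 3.10 ± 0.53 SE, adjusted p = 0.0224). Its relative Ccn1 stood at 14.3, 3.98 and 7.05 against 83.9, 113 and 59.1 (3.59 ± 0.69, adjusted p = 0.0245), and Glutamate alone gave 211, 49.5 and 36.9. The groups did not overlap for either gene. Flna, an actin cross-linker, gave 1.65 ± 0.35 (adjusted p = 0.0274), and Cald1, the actin-binding protein caldesmon, 1.41 ± 0.32 (adjusted p = 0.0308).

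Among the mural genes Mcam, an adhesion molecule of pericytes and smooth muscle, stood at 7.71, 7.51 and 14.4 CPM in Control and 45.8, 38.3 and 43.1 in Glutamate_vesicles (2.14 ± 0.34, adjusted p = 0.0224). Cspg4, the NG2 proteoglycan of pericytes and also of oligodendrocyte progenitors, gave 1.63 ± 0.43 (adjusted p = 0.0461). Of the fibroblast genes, the matrix genes Col1a1 (2.46 ± 0.65, adjusted p = 0.0464) and Bgn (2.78 ± 0.70, adjusted p = 0.0399) were higher, Bgn with overlapping groups, and Thy1, which neurons also carry, was lower (−2.20 ± 0.47, adjusted p = 0.0273). Tgfb2, a TGF-beta ligand, stood at 393, 113 and 87.0 CPM in Control and 47.4, 34.5 and 31.0 in Glutamate_vesicles (−2.22 ± 0.41, adjusted p = 0.0233). Without the block the adjusted p of these 10 lay between 0.161 and 0.525. In the blocked fit without Control 1, which held the 393 CPM of Tgfb2, all 10 had the same direction and 6 were called (Cald1, Tgfb2, Ccn1, Ccn2, Mcam and Thy1), with Tgfb2 at −1.56 ± 0.34 (adjusted p = 0.0300), while Flna stood at an adjusted p of 0.0618, Col1a1 at 0.0834, Bgn at 0.0844 and Cspg4 at 0.128. In the libraries given glutamate alone, Ccn1, Mcam (17.5 to 31.2 CPM), Flna (132 to 156), Cald1 (32.8 to 44.1) and Thy1 (3.70 to 8.14, lower) did not overlap Control. The highest Control library stood close, at 122 CPM, for Flna and at 32.0 for Cald1. The share of all genes without overlap was not taken for Glutamate with Control. These genes were also picked through a comparison that shares the Control libraries. The Glutamate libraries overlapped Control for Ccn2, Tgfb2, Col1a1, Bgn and Cspg4.

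Markers of the cells that fill these cultures moved with the same groups. The 8 neuron markers summed to 2719 to 3628 CPM in Control, 797 to 1554 in Glutamate, 949 to 4355 in Memantine, 912 to 1305 in Glutamate_vesicles, 987 to 1480 in Glutamate_BPC and 735 to 1431 in Glutamate_secret. The neuron sum was below every Control library in all groups given glutamate except Memantine, which overlapped. The 8 oligodendrocyte lineage markers summed to 529 to 846 CPM in Control, 513 to 1218 in Memantine, 1027 to 1206 in Glutamate, 941 to 1229 in Glutamate_BPC, 995 to 1223 in Glutamate_secret and 1239 to 1454 in Glutamate_vesicles, so that Memantine alone overlapped Control. The 8 microglia markers lay between 37.7 and 99.7 CPM in Control, 27.3 and 361 in Memantine, 89.5 and 301 in Glutamate, 51.3 and 139 in Glutamate_vesicles, 69.6 and 559 in Glutamate_secret and 101 and 403 in Glutamate_BPC. The 8 astrocyte markers lay between 3082 and 5715 CPM in Control, 3557 and 9003 in Memantine, 5427 and 9989 in Glutamate, 3355 and 6721 in Glutamate_vesicles, 4961 and 7381 in Glutamate_secret and 6780 and 11965 in Glutamate_BPC. Both of these sums were clear of Control in Glutamate_BPC and overlapped it in the other groups. The 18 other contractile and SRF target genes summed to 409 to 538 CPM in Control, 670 to 1060 in Glutamate, 494 to 813 in Memantine, 1035 to 1151 in Glutamate_vesicles, 1056 to 1225 in Glutamate_BPC and 989 to 1129 in Glutamate_secret. The contractile sum overlapped Control in Memantine and was above every Control library in the other groups. With the means of the replicate numbers removed, Tagln correlated at −0.80 with the neuron sum and 0.81 with the oligodendrocyte lineage sum on the log2 scale over 18 libraries, and Cnn1 at −0.77 and 0.79. With the microglia sum Tagln correlated at 0.73 and Cnn1 at 0.60, and with the astrocyte sum at 0.63 and 0.67. Without that removal, Tagln stood at −0.54, 0.62, 0.52 and 0.61 with the neuron, oligodendrocyte lineage, microglia and astrocyte sums. Cnn1 then stood at −0.64, 0.70, 0.50 and 0.68 in the same order. The points of these correlations share libraries, scaling and treatment, and the part of cell composition in the levels of Tagln and Cnn1 was not tested.

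**Figure D5:**
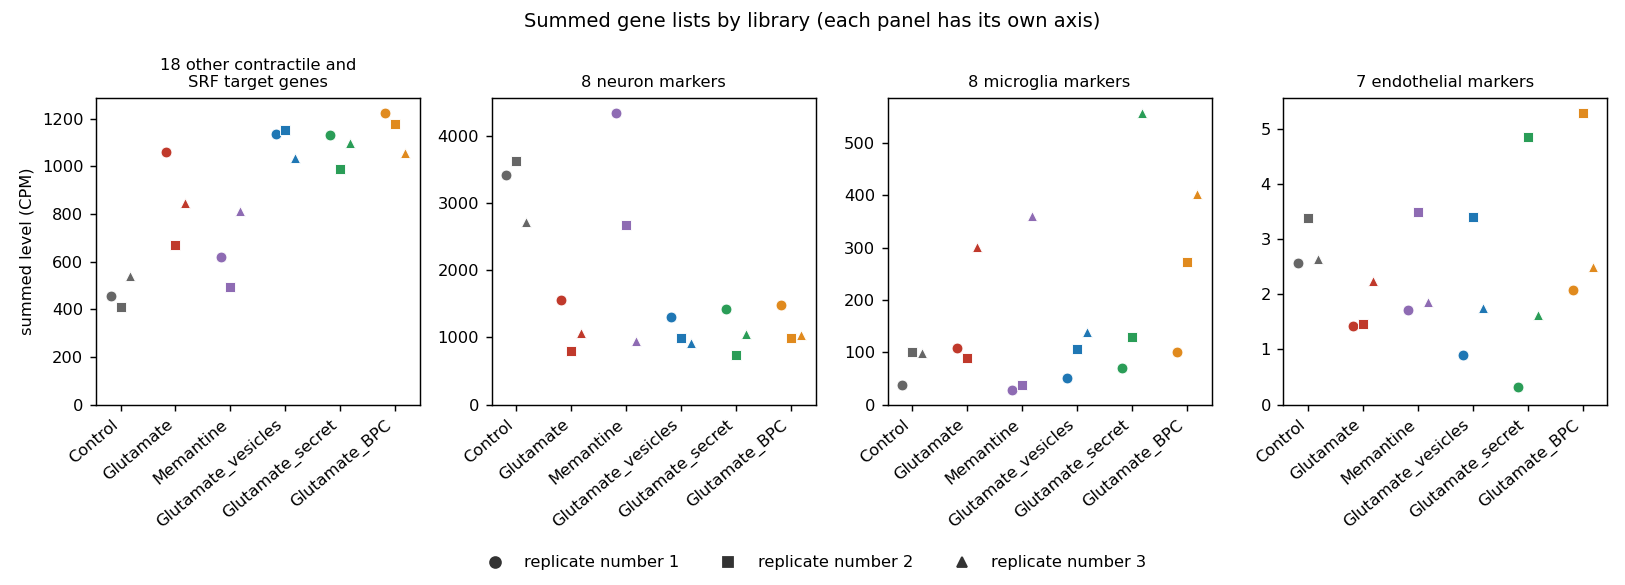
Summed CPM per library of 18 other contractile and SRF target genes, 8 neuron markers, 8 microglia markers and 7 endothelial markers in the 6 groups, with a point for each library and an axis of its own in each panel. The contractile sum in Control (409 to 538) overlaps that in Memantine and lies below all libraries of the other groups, the neuron sum is higher in Control (2719 to 3628) than in all libraries of the groups other than Memantine, and the endothelial sum stays at or under 5.30.

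The contractile genes moved together across the libraries. Over 18 libraries Tagln correlated with Cnn1 at r = 0.87 and with Myl9 at r = 0.87, and at 0.85 and 0.88 with the replicate number means removed. Cnn1 and Myl9 correlated at 0.71 (0.77), Tagln and Pdgfrb at −0.53 (−0.28), and Cnn1 and Postn at 0.31 (0.51). The genes most like the mean of Tagln, Myl9 and Cnn1 were S100a10, an annexin partner at the cell membrane, Bcl2l12, Tagln2, the transgelin of non-muscle cells, Kdelr3, a receptor that returns proteins to the endoplasmic reticulum, and Gng11, a G protein subunit, at r from 0.97 to 0.98, and from 0.94 to 0.96 with the replicate number means removed. As many as 953 of 14393 genes had an r above 0.8 with that mean, so a high r with the contractile genes is common in these libraries.

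Pdgfrb and Postn had other neighbours. Pdgfrb was most like Fzd8, a Wnt receptor, Gsdme, a gasdermin, Wdr19, Uhrf2 and Zfyve26, at r from 0.90 to 0.91 (0.82 to 0.88 with the number means removed), with 331 genes above 0.8. Postn was most like Adamtsl3 (r = 0.83), Rrlt, Ltbp1, which binds latent TGF-beta in the matrix, Nrarp and Elk3, a cofactor of SRF (r = 0.77), with 4 genes above 0.8. These correlations share libraries, depth and replicate number, and they describe likeness over 18 libraries without a test.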

How the data were processed

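RNA from 18 cortical neuroglial culture libraries (6 groups of 3) was sequenced from messenger RNA. The deposited values are expected counts per gene, which the authors made by trimming reads with Trimmomatic and Cutadapt, estimating transcript abundance with Salmon and summing to genes with tximport. The submitters' processing notes also name STAR and the genome build rn6. For Salmon, the version is not given in the sources used. Estimated counts split reads between similar genes by a model, so paralogues such as the actins are uncertain.

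The estimated counts were rounded, and edgeR 4.0.16 (R 4.3.3) was used. Genes were kept by filterByExpr (minimum count 10, minimum total 15), scaled by TMM, and fitted with a quasi-likelihood model with 1 mean per group over all 18 libraries, with Benjamini-Hochberg adjustment over 14398 genes at 0.05. Of the entries in the files 78 name ribosomal RNA and 5581 carry identifiers only. CPM is the count over the TMM-scaled library size times 1000000, log2 CPM used a prior count of 2, and the SE is the absolute log2 fold change divided by the square root of F. Counting intervals and floors (3 counts) cover counting error only. Libraries of 8409574 to 17206354 counts limit genes with few counts. Same-numbered libraries were taken as paired where the correlation of their deviations was above 0.1 at all 3 numbers, which held for Glutamate_vesicles with Control (0.600, 0.505 and 0.208), Memantine with Glutamate (0.756, 0.889 and 0.573), Glutamate_secret with Glutamate (0.705, 0.892 and 0.445) and Glutamate_BPC with Glutamate (0.453, 0.751 and 0.484). The pairing comes from these correlations, not from the labels.

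Alternatives were DESeq2 1.42.0, edgeR's likelihood-ratio test (the study's kind of test), RLE scaling, no filter, replicate number as a block, the log2 ribosomal share as a covariate, and leaving out each library. The members and gene lists were chosen with earlier results of these data known. Named genes were all 9 members, the list genes called in a comparison, and, for the tested genes of each set (Postn; Pdgfrb; the mean of Tagln, Myl9 and Cnn1), the 5 genes with the highest Pearson r over 18 libraries. The example marker genes and the other actins were named after their values were seen. Fits of the lists without Control 1 were also added after the data were seen. Scripts were tested on simulated counts. Promoters came from RefSeq (GRCr8).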

Additional observations from a re-analysis of the deposited data

How the results depend on the processing

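Of 45 fold changes of the 5 tested genes, 540 values under alternatives gave 493 with the same direction and side of the threshold, 34 reversed, 13 newly past the threshold and 0 lost. The number of the 5 genes called over the 6 groups, 0 as reported, was 1 with DESeq2, 1 with the likelihood-ratio test and 2 with the replicate block (Tagln 0.0272 and Cnn1 0.0392), and 0 to 3 when the block was refitted without each library. Against Control, DESeq2, the likelihood-ratio test and the block gave 1, 1 and 2 in Glutamate_vesicles, 2, 1 and 2 in Glutamate_secret, and 1, 1 and 2 in Glutamate_BPC, and the block without each library gave 0 to 2, 0 to 2 and 0 to 1. Without the block, leaving out any library called none in these comparisons. In Glutamate_secret and Glutamate_BPC the same numbers do not pair the libraries by the correlations. There the blocked adjusted p was 0.0193 for Tagln and 0.0220 for Cnn1, and 0.0486 and 0.0469. Over their 12 alternatives, adjusted p in Glutamate_vesicles, Glutamate_secret and Glutamate_BPC against Control ran from 0.0348 to 0.780, 0.0193 to 0.676 and 0.0486 to 0.778 for Tagln, and from 0.00632 to 0.712, 0.0194 to 0.570 and 0.0174 to 0.756 for Cnn1. The replicate block changed no other call of the 5 genes. Replicate number was called for 4 genes, 2 to 4 without each library (2 without Glutamate 2) and 0 with the ribosomal share as covariate. Over all genes, calls went from 1 over the 6 groups to 717 with DESeq2, 587 with the likelihood-ratio test, 497 with the block and 385 with the ribosomal share. They went from 2 to 496, 160, 538 and 57 in Glutamate_vesicles against Control, from 0 to 449, 223, 700 and 581 in Glutamate_secret, from 0 to 256, 61, 251 and 18 in Glutamate_BPC, and from 0 to 232, 45, 166 and 32 in Glutamate. The cause was not tested. DESeq2 gave Postn no adjusted p in Glutamate_vesicles against Control.

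Reversed values belong to differences smaller than their errors. With the ribosomal share as covariate, Memantine against Glutamate gave −0.10 for Pdgfrb and 0.32 for Myl9 (log2), and Glutamate_vesicles against Glutamate gave −0.13 for Pdgfrb. Glutamate_secret against Glutamate gave 0.010 with DESeq2, 0.0043 with the likelihood-ratio test and 0.016 without the filter for Pdgfrb, and Memantine against Control gave 0.020 with the block for Pdgfrb. Leaving out each library, Pdgfrb ran from −0.76 to 0.026 in Glutamate, −0.27 to 0.23 in Memantine, −0.28 to 0.23 in Glutamate_vesicles, −1.19 to 0.13 in Glutamate_secret and −0.50 to 0.030 in Glutamate_BPC against Control. Against Glutamate it ran from −0.055 to 0.73 in Memantine, −0.057 to 0.73 in Glutamate_vesicles, −0.92 to 0.48 in Glutamate_secret and −0.25 to 0.53 in Glutamate_BPC. Against Glutamate, Myl9 ran from −0.78 to 0.29 in Memantine, −0.47 to 1.08 in Glutamate_vesicles and −0.12 to 0.84 in Glutamate_secret, Cnn1 from −0.039 to 0.89 in Glutamate_secret, and Postn from −3.24 to 2.54 in Memantine. Against Control in Memantine, Tagln ran from −0.75 to 1.08 and Myl9 from −0.024 to 1.04.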
